A study of Mus musculus with 16 samples.

Results

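RNA of 10 apolipoprotein genes, Apoa1, Apoa2, Apoa4, Apoa5, Apob, Apoc1, Apoc3, Apoe, Apoh and Apom, was followed through 16 sequencing libraries of mouse aorta and liver. The genes were taken by symbol, by a rule that uses no measured value, though with earlier results of these data known, from a count table of 24011 genes, and all 10 were found. Each group came from wild-type C57BL/6 female mice that had been ovariectomized at 6 to 7 weeks of age, with tissue taken 1 week after surgery. Aortas, or pieces cut from the end of the largest liver lobe, were cultured for 4 h with 10 nM 17b-estradiol (E2) or with ethanol as vehicle. The groups were aorta with E2, aorta with vehicle, liver with E2 and liver with vehicle, with 4 libraries each. These are explants, so ovarian hormones were lacking in every group and blood no longer reached the tissue. The labels describe 8 Ovation libraries, started with 50 ng of RNA and read on 2 types of sequencer, and 8 poly-A selected TruSeq libraries, started with 600 ng of RNA of 1 aorta or 1 liver piece. The series text gives 2 replicates a condition, each with tissue of 4 mice. Table columns carry a suffix, n1, n2, o1 or o2, that no label explains, and libraries are called by it here. The sources used here do not state whether n and o stand for these kits.

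Apolipoproteins are the protein part of lipoproteins, the particles that carry cholesterol, triglyceride and phospholipid in blood. Hepatocytes make most of the apolipoprotein in plasma, and the intestine makes some of it. Apob is the structural protein of very-low-density and low-density lipoproteins, and Apoa1 and Apoa2 are the main proteins of high-density lipoprotein. Apoe is a ligand for lipoprotein receptors of cells and is also made by macrophages and other cells outside the liver, including cells of the artery wall. Estrogen is known for its effects on plasma lipoproteins, and both liver and vessel wall hold estrogen receptors.

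The genes lie at several places in the genome (GENCODE M21, build GRCm38). Apoa1, Apoc3, Apoa4 and Apoa5 stand side by side on chromosome 9, from 46228580 to 46271919. Apoc1, at 19689481 to 19692660, and Apoe, at 19696109 to 19699188, are neighbours on chromosome 7. Apob is on chromosome 12, Apoa2 on chromosome 1, Apoh on chromosome 11 and Apom on chromosome 17. Apoh overlaps Prkca on the other strand, so some of its reads may belong to that gene if strand was not used in counting. RefSeq promoters (build GRCm38.p6) were found for 8 members, and 3 are shown. Apob is shown because it went against the other members between n and o libraries, Apoe because it had the highest level of the 10 in aorta, and Apoa1 because the E2 effects of the tissues lay farthest apart for it. Each runs 5′ to 3′ on the strand of its gene, from 250 bases before the RefSeq start where no annotated exon lies in between, and ends where the GENCODE gene begins. Capitals mark 2 motifs in Apob, the HNF4 core with 1 more G as read from the other strand, with its first base at -96, and TATAAA, with its first base at -60 (positions from the RefSeq start).
Apob, chr12:7977427-7977647, plus strand: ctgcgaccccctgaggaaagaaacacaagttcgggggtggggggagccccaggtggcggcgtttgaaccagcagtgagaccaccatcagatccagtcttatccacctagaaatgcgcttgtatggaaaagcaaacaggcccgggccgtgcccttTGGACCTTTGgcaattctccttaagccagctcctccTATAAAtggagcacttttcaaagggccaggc
Apoe, chr7:19699189-19699438, minus strand: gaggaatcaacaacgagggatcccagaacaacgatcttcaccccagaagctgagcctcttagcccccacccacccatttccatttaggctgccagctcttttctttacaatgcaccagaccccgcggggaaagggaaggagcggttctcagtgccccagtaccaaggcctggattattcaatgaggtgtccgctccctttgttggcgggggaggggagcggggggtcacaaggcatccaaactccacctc
Apoa1, chr9:46228380-46228579, plus strand: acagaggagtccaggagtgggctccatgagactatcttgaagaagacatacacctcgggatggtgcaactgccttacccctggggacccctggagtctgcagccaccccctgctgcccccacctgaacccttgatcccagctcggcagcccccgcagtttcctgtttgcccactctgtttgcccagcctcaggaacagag
HNF4 is a nuclear receptor of hepatocytes, and CAAAGTCCA is its core motif. The core with 1 more G was found on either strand, from 250 bases before to 50 bases after the start, in 14 of 32851 RefSeq promoters (0.0426%), and Apob was the only member with it. The core itself was in 0.475% of promoters and in no member. The palindromic estrogen response element was in 0.0700% of promoters and in no member. TATAAA was in 13.6% of promoters, among them an entry each of Apoa2, Apoa5, Apob and Apoe. The half-site AGGTCA, which can overlap that element, was in 16.3% of promoters and in entries of Apoa2 and Apoh. These are letter matches in this window and show no binding.

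Reads counted to genes numbered 3896733 to 19823982 a library. Rn45s, the ribosomal RNA precursor, took 25.7% to 34.5% of them in the o libraries of liver and 2.94% to 6.20% in the other 12 libraries. The tissue labels were met by their markers. Summed levels of 8 smooth muscle markers were 9924 to 31235 CPM in aorta with E2 and 10607 to 20101 CPM in aorta with vehicle, against 178 to 475 and 171 to 469 CPM in liver with E2 and with vehicle (CPM are counts scaled to 1000000 on TMM library sizes). Of the columns, none is tied to an animal or culture, so p-values measure the spread between these libraries, which may be technical. In bulk tissue, fewer cells of a type and less RNA per cell cannot be told apart.

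In liver the 10 genes together took 11.1% and 11.7% of gene counts in n1 and n2 with E2, against 8.19% and 8.04% in n1 and n2 with vehicle. In o1 and o2 livers they took 1.37% and 1.90% with E2, against 1.42% and 2.29% with vehicle. Every n liver was thus above every o liver, and the treatments overlapped in o but not in n.

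Among the proteins of high-density lipoprotein, Apoa1 had 27472, 21393, 4826 and 5414 CPM in n1, n2, o1 and o2 livers with E2, against 12231, 10031, 5089.5 and 6717 CPM in the same order with vehicle. Apoa2, its partner on these particles, had 25737, 43098, 2845 and 4592 CPM with E2, against 15947, 14838, 2979.8 and 7151 CPM with vehicle. For both genes the n livers with E2 were the highest, and the groups overlapped over all 4 suffixes. Apom, a lipocalin that carries sphingosine phosphate on high-density lipoprotein, was lower in level, with 615, 545, 30.0 and 43.3 CPM with E2, against 341, 225, 29.2 and 48.9 CPM with vehicle.

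Among the proteins of triglyceride-rich particles, Apob had 1589, 1745, 5105 and 5319 CPM with E2, against 1809, 1937, 5209 and 7798 CPM with vehicle, and here the o livers were the high ones. Apoc3, an inhibitor of lipoprotein lipase, had 10506, 15686, 224 and 479 CPM with E2, against 5932, 5734, 248 and 681 CPM with vehicle. Apoe had 53654, 57309, 3687 and 5881 CPM with E2, against 31491, 30672, 4078 and 6746 CPM with vehicle. Apoc3 and Apoe were thus both highest in n livers with E2 and lowest in o livers. Apoc1, an inhibitor of cholesteryl ester transfer protein in other species, ranged from 577 to 17738 CPM with E2 and from 585 to 7042 CPM with vehicle. Apoa4, also made by the intestine, ranged from 439 to 1888 CPM with E2 and from 426 to 1857 CPM with vehicle, and its E2 and vehicle ranges nearly coincided. Apoa5, which promotes triglyceride clearance, ranged from 103 to 1871 CPM with E2 and from 99.9 to 1413 CPM with vehicle. Apoh, a plasma glycoprotein that binds phospholipid, ranged from 329 to 5813 CPM with E2 and from 342 to 2895 CPM with vehicle.

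**Figure D1:**
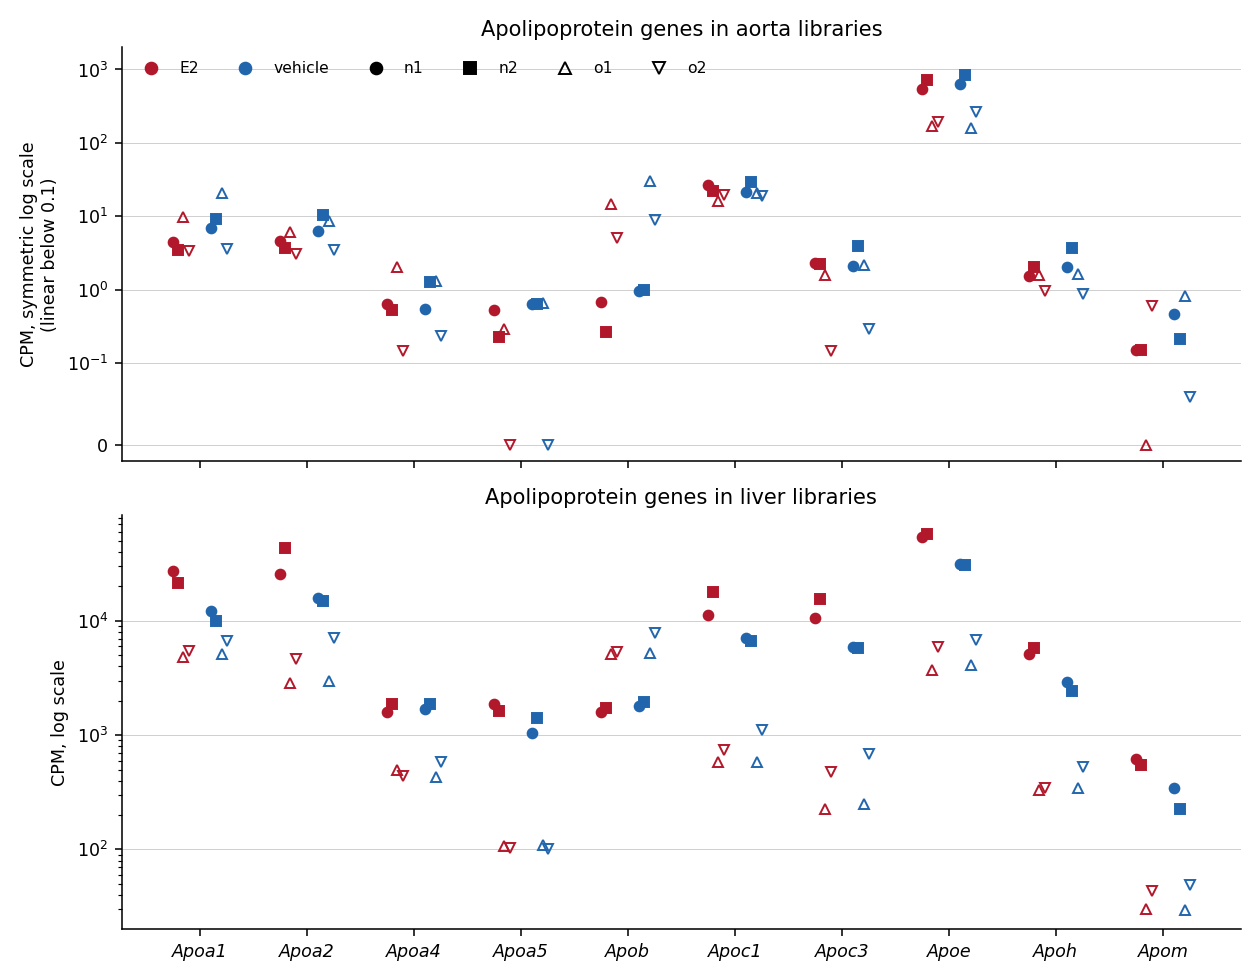
CPM of the 10 genes in each of the 16 libraries on a log axis, by group and suffix. Apoe in aorta lies between 159.9 and 834 CPM, far above the other 9 genes there, and n and o libraries of liver stand apart.

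Levels of different genes were ordered as CPM per kilobase of merged exons. In n livers with vehicle the order was Apoa2 (28663), Apoe (16911), Apoc1 (12393), Apoa1 (10755), Apoc3 (6759), Apoh (2246), Apoa4 (976), Apoa5 (489), Apom (279) and Apob (134), each as the mean CPM per kilobase of 2 libraries, and no neighbours overlapped. In n livers with E2 the order was the same, led by Apoa2 with 64092 CPM per kilobase, and Apoe, Apoc1 and Apoa1 overlapped as neighbours. In o livers Apoa2 led too, with 6925 CPM per kilobase with E2 and 9433 with vehicle, and Apoa1 came next. Apob stood sixth there, with 374 CPM per kilobase with E2 and 467 with vehicle, and overlapped with Apoc3. Apoa5 and Apom were the last in o livers and overlapped. Apob has 13934 bases of merged exons, against 537 for Apoa2, the shortest of the 10, and 2522 for Apoa5, the next longest.

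All 10 genes were lower in aorta than in liver, and Apoe and Apoc1 were the ones with the smallest difference. Apoe had 543, 726, 172 and 195 CPM in n1, n2, o1 and o2 aortas with E2, and 640.0, 834, 159.9 and 262 CPM in aortas with vehicle, in the same order. Every aorta was far below every liver, with the n aortas above the o aortas. With vehicle the log2 difference of aorta minus liver was -5.10 ± 0.42 (SE), or 34.2-fold lower in aorta, with an adjusted p of 1.29e-06 by the quasi-likelihood test of edgeR after Benjamini-Hochberg adjustment. Apoc1 had 26.6, 22.1, 16.4 and 19.4 CPM in aortas with E2 and 21.5, 29.0, 20.8 and 18.8 CPM in aortas with vehicle. It was 112-fold lower in aorta with vehicle (log2 difference -6.81 ± 0.66, adjusted p = 4.9e-06 by the same test). For the other 8 genes the log2 difference with vehicle lay between -10.49 for Apoa4 and -8.76 for Apom. Apom had at most 12 reads in an aorta library and passed the filter between the tissues through its liver counts. Apoa5 had at most 16 reads in an aorta library, so the sizes for these genes rest on few aorta reads. All 10 of 10 members passed the threshold (adjusted p under 0.05 and an absolute log2 difference over 1), where 23.4% of the 12607 tested genes were lower in aorta and 24.1% higher. The median log2 difference was -9.92 over the members and 0.054 over all tested genes. In E2 libraries all 10 of 10 were lower too, against 22% of 13061 genes lower and 26.3% higher, with a median of -10.49 over the members. There Apoe was 46.5-fold lower and Apoc1 145-fold lower in aorta.

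Per kilobase, Apoe led in aorta with 222 CPM per kilobase with E2 and 258 with vehicle, followed by Apoc1 with 38.2 and 40.7. In all 8 aortas Apoe was above Apoc1, and Apoc1 above Apoa2. Apoa2 had 8.19 and 13.4 CPM per kilobase and Apoa1 5.07 and 9.81 with E2 and with vehicle, and these 2 genes overlapped. From Apoc3 downwards, with at most 2.46 CPM per kilobase on average, neighbours overlapped.

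Each gene's CPM in aorta was also set against its CPM in the liver of the same suffix and treatment, as a percentage. Apoe was at 1.01, 1.27, 4.66 and 3.31% in n1, n2, o1 and o2 with E2, and at 2.03, 2.72, 3.92 and 3.89% with vehicle. Apoc1 was at 0.236, 0.125, 2.85 and 2.61% with E2 and at 0.306, 0.434, 3.56 and 1.71% with vehicle. The median of the other 8 genes was 0.0264, 0.0159, 0.283 and 0.0641% with E2 and 0.0548, 0.0693, 0.536 and 0.0508% with vehicle. The median of 19 hepatocyte markers that are not apolipoproteins was 0.0284, 0.0207, 0.275 and 0.0705% with E2 and 0.0579, 0.0776, 0.468 and 0.0877% with vehicle, of like size to that of the 8 genes in each suffix. Of these 19 markers, 16 to 17 were below Apoe and 15 to 17 below Apoc1. The hepatocyte markers had summed levels of 391 to 626 CPM in aortas with E2 and 448 to 862 CPM in aortas with vehicle, with none at 0 in every library of a group, and 88431 to 224485 and 93596 to 144819 CPM in livers with E2 and with vehicle. Per 1000 counts of Alb, the albumin gene of hepatocytes, Apoe had 34506 counts in n aortas with E2 and 20715 with vehicle, and 527 and 442 in n livers. In o libraries it had 2375 and 1835 in aorta, and 115 and 87.3 in liver, with E2 and with vehicle. Apoa1 had 217 and 228 counts per 1000 Alb counts in n aortas with E2 and with vehicle, and 252 and 157 in n livers. In o libraries Apoa1 had 69.5 and 62.6 in aorta, and 115 and 91.3 in liver. Apoc1 had 1327 and 707 in n aortas with E2 and with vehicle, and 123 and 97.6 in n livers. In o libraries it had 234 and 150 in aorta, and 15.2 and 13.9 in liver. The ratio of Apoa1 to Alb was thus higher in aorta in n libraries with vehicle only, and lower in the other sets. Those of Apoe and Apoc1 were far higher in aorta in each set. How much liver RNA the aorta libraries held was not tested.

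**Figure D2:**
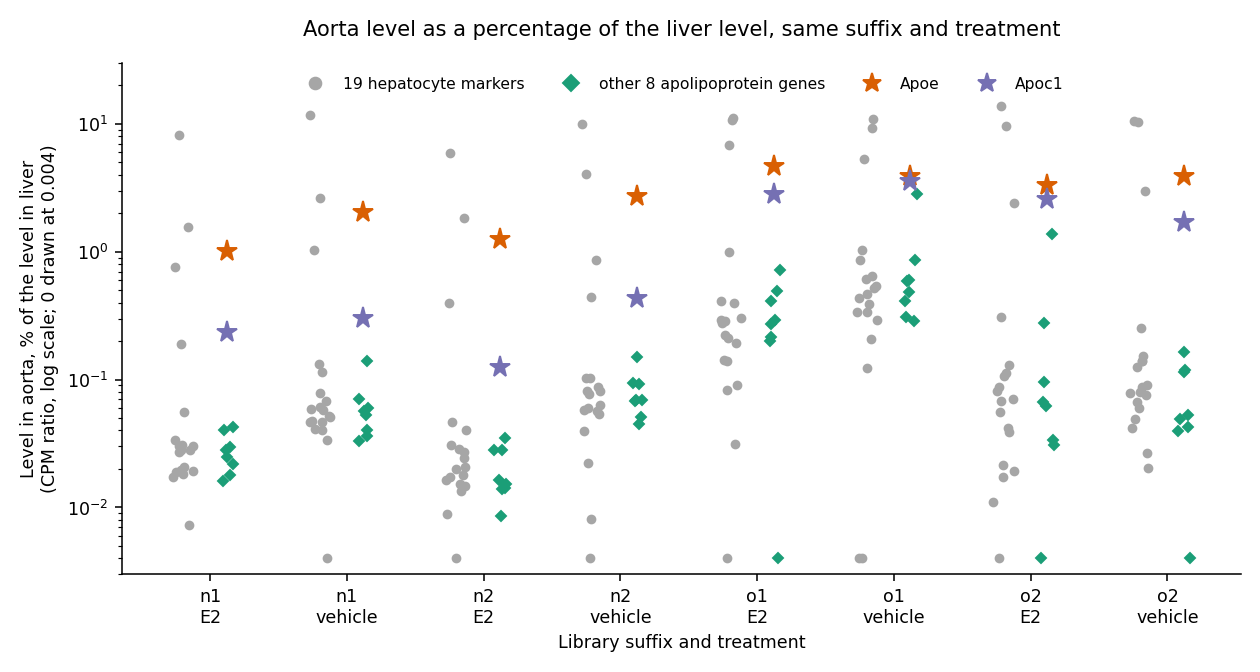
CPM in aorta as a percentage of CPM in the liver of the same suffix and treatment, on a log axis, for the 10 genes and for 19 hepatocyte markers. Apoe lies at 1.01% to 4.66%, above the other 9 genes in each suffix but not above every marker.

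The next comparison asks whether E2 altered these genes in aorta within 4 h. No gene passed the threshold by the quasi-likelihood test of edgeR after Benjamini-Hochberg adjustment, and no member was called: 0 of 13698 genes were called (0%), with 495 at an unadjusted p under 0.05. DESeq2 called 24 genes and limma voom 0, and no member was among the calls of either. With the 4 suffixes as a replicate block, 11 genes were called higher and 1 lower, with no member among them, and the log2 differences of Apob, Apoa1 and Apoa2 were -0.98 ± 0.28, -0.85 ± 0.27 and -0.69 ± 0.29 (adjusted p = 0.452, 0.563 and 0.749). Of the members 9 were tested, Apom being below the filter on low counts, and all 9 had a negative log2 difference.

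Apob had 0.681, 0.266, 15.0 and 5.13 CPM in n1, n2, o1 and o2 aortas with E2, against 0.950, 0.993, 30.7 and 8.95 CPM with vehicle. These are 18, 7, 102 and 69 reads with E2, against 24, 14, 186 and 154 reads with vehicle. The E2 library was below the vehicle library in 4 of 4 suffixes, the groups did not overlap within n, and o libraries were above n libraries in both treatments. The log2 difference was -0.97 ± 0.29 (SE; 95% interval -1.63 to -0.32; unadjusted p = 0.0085, adjusted p = 1).

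Apoa1 had 4.43, 3.54, 9.68 and 3.34 CPM with E2, against 6.97, 9.29, 20.8 and 3.55 CPM with vehicle, with means of 5.25 ± 2.99 CPM for E2 and 10.2 ± 7.48 CPM for vehicle (SD, n = 4 each). E2 was the lower in 4 of 4 suffixes, with the o1 library the highest of each group. The log2 difference was -0.86 ± 0.28 (95% interval -1.48 to -0.24; unadjusted p = 0.0123, adjusted p = 1). Apoa2 had 4.65, 3.73, 6.16 and 3.05 CPM with E2, against 6.41, 10.4, 8.59 and 3.49 CPM with vehicle, also lower in 4 of 4 suffixes. Its log2 difference was -0.72 ± 0.30 (unadjusted p = 0.0395, adjusted p = 1).

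Apoe and Apoc1, the genes with the highest levels in aorta, had differences near 0. The means of Apoe were 409 ± 271 CPM with E2 and 474 ± 317 CPM with vehicle (SD, n = 4 each), and its log2 difference was -0.22 ± 0.19 (95% interval -0.65 to 0.21). The means of Apoc1 were 21.1 ± 4.34 CPM with E2 and 22.5 ± 4.47 CPM with vehicle, with a log2 difference of -0.12 ± 0.19 (95% interval -0.56 to 0.31). Apoa5, Apoc3, Apoh and Apoa4 had log2 differences of -0.85 ± 0.58, -0.51 ± 0.37, -0.40 ± 0.39 and -0.31 ± 0.49, on at most 61 reads a library. Apom, which carried at most 12 reads in an aorta library, was not tested.

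Over the 9 tested members the median log2 difference in aorta was -0.51, and over all tested genes it was -0.0083. At an unadjusted p under 0.05, 3 of the 9 members were lower, where 2.05% of all genes were lower and 1.56% higher. Of the 10 members, 6 had E2 values wholly below the vehicle values in n aortas, the untested Apom among them (9.18% of all genes), 0 had them in o aortas (10.4%) and 0 over all 4 suffixes (0.161%). None had E2 values wholly above the vehicle values, which 11.2% of all genes had in n, 8.58% in o and 0.27% over all suffixes. In o libraries alone 6 of 8 tested members were negative, with -0.91 ± 0.29 for Apob and -0.61 ± 0.34 for Apoa1. In n libraries alone 9 of 9 were, with -1.07 ± 0.66 and -1.08 ± 0.39. The E2 effect in n minus that in o aortas was -0.077 ± 0.94 for Apob and -0.18 ± 1.07 for Apoa1. It was negative in 7 of 9 members and positive in 2, and 0 of 13698 genes were called. Hepatocyte markers also had mostly negative differences of E2 minus vehicle over the aorta libraries. Of the 15 tested, 14 were negative, with a median of -0.69, 7 had an unadjusted p under 0.05, and 0 were called. Ttr, the transthyretin gene, had -1.41 ± 0.26 (adjusted p = 0.517) and Alb -0.88 ± 0.19 (adjusted p = 0.731). Hnf4a, a defining hepatocyte factor, was at 0 in every aorta library but n1 with E2 and o2 with vehicle. Lymphocyte markers were negative in 6 of 6 tested genes (median -1.46), with summed levels in n aortas of 10.1 to 21.1 CPM with E2 and 10.2 to 119 CPM with vehicle, ranges that overlap. Macrophage markers were negative in 10 of 11 (median -0.13) and fibroblast markers in 6 of 6 (median -0.081), and 0 genes of these 3 lists were called. By merged exon length, the median log2 difference over genes in n aortas was -0.30 under 1000 bases, -0.16 from 1000 to 2000, 0.022 from 2000 to 4000, 0.088 from 4000 to 8000 and 0.069 above 8000 bases, and in o aortas these medians ran from -0.14 to 0.060. Apoa2 is in the shortest of these classes, Apoa1 in the next and Apob in the longest. The part of other cells and of transcript length in these differences was not tested.

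**Figure D3:**
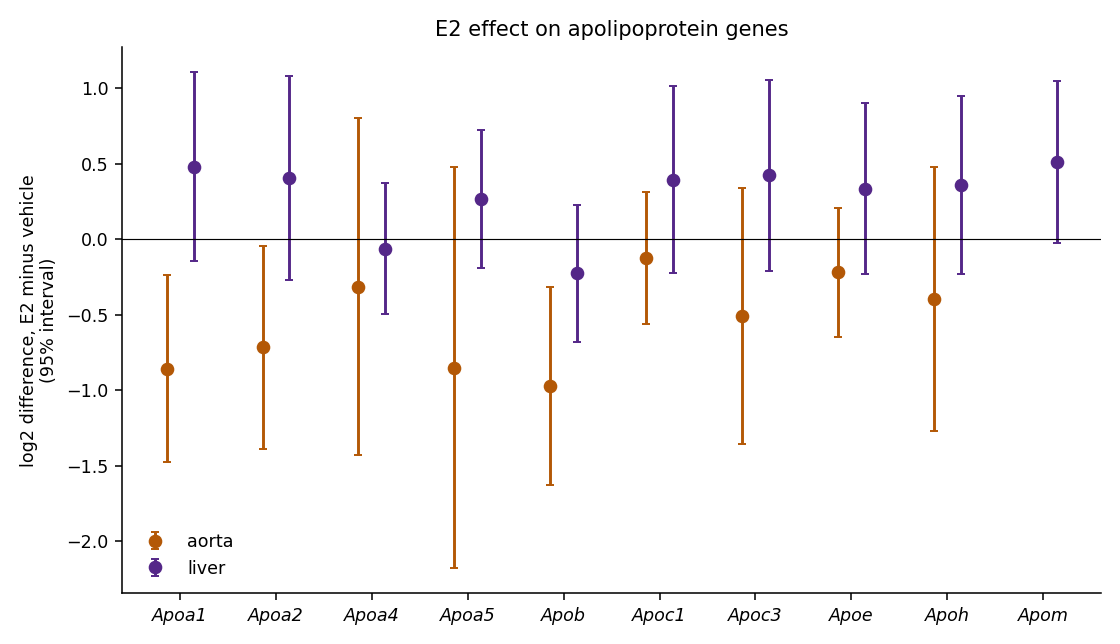
Log2 difference of E2 minus vehicle for each member in aorta and in liver, with 95% intervals, from the fits to the 8 libraries of each tissue. In aorta all 9 tested members lie below 0, and in liver 8 of 10 lie above it, with 0 past the threshold in either tissue.

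In liver, too, no gene passed the threshold by the quasi-likelihood test of edgeR after Benjamini-Hochberg adjustment: 0 of 11726 genes were called (0%), with 502 at an unadjusted p under 0.05. DESeq2 and limma voom called 0 genes each. Of the members, 8 had positive and 2 negative log2 differences, with a median of 0.38 against -0.0053 over all genes. The farthest from 0 were Apom with 0.51 ± 0.25, Apoa1 with 0.48 ± 0.29 and Apoc3 with 0.42 ± 0.30. Apoa2, Apoc1, Apoh, Apoe and Apoa5 had 0.40 ± 0.32, 0.40 ± 0.29, 0.36 ± 0.28, 0.34 ± 0.27 and 0.26 ± 0.21. Apoa4 had -0.061 ± 0.20 and Apob -0.23 ± 0.21. Adjusted p-values ran from 0.939 to 0.979, and none of the 10 had an unadjusted p under 0.05, where 2.55% of all genes were higher and 1.73% lower at that level. The 95% interval of Apoa1 was -0.15 to 1.11 and that of Apoe -0.23 to 0.90.

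The n and o livers were also taken separately. In n livers 8 members had E2 values wholly above the vehicle values (25.1% of all genes) and 1, Apob, wholly below (23.5%), and Apoa4 overlapped. In o livers all 10 overlapped, where 11.5% of all genes were wholly higher and 13.5% wholly lower, and so did all 10 over the 4 suffixes, against 0.162% and 0.179%. In the n libraries alone the log2 differences of Apoa1, Apoa2, Apoc1, Apoc3, Apoe, Apoh and Apom were 1.10 ± 0.26, 1.14 ± 0.30, 1.06 ± 0.28, 1.14 ± 0.27, 0.81 ± 0.26, 1.01 ± 0.24 and 1.01 ± 0.26, with adjusted p-values from 0.171 to 0.218 over 11647 genes. Apoa5 had 0.48 ± 0.24, Apoa4 -0.049 and Apob -0.19. At an unadjusted p under 0.05, 8.92% of all genes were higher and 6.02% lower in n livers. In the o libraries alone the same 7 genes had -0.16, -0.32, -0.26, -0.30, -0.14, -0.31 and -0.043. Of these Apoa2 was the one farthest from 0 (unadjusted p = 0.0205, adjusted p = 0.680 by the quasi-likelihood test of edgeR).

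The difference between the E2 effects of n and o livers was tested itself. It was 1.28 ± 0.38 for Apoa1 (unadjusted p = 0.00457), 1.52 ± 0.50 for Apoa2 (unadjusted p = 0.00917) and 1.34 ± 0.38 for Apoh (unadjusted p = 0.00331). Adjusted p-values of the 10 members ran from 0.577 to 0.997 in the quasi-likelihood test of edgeR, which called 0 of 11726 genes (0%) and had 965 at an unadjusted p under 0.05. DESeq2 called 7 genes. Without the filter on low counts 20 genes were called, 13 higher and 7 lower, and Apoa2 was among them (1.53, adjusted p = 0.0402). At an unadjusted p under 0.05, 7 of the 10 members had a higher E2 effect in n livers, where 4.17% of all genes did and 4.06% had a lower one. Apoa4, with 0.012 ± 0.37, and Apob, with 0.076 ± 0.37, were near 0.

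Other features also differed between E2 and vehicle in n livers. By merged exon length, the median log2 difference over genes there was 0.47 under 1000 bases, 0.27 from 1000 to 2000, -0.036 from 2000 to 4000, -0.24 from 4000 to 8000 and -0.44 above 8000 bases. In o livers these medians ran from -0.10 to 0.048. Apoa2, Apoc1 and Apoc3 are under 1000 bases and Apob is above 8000. Apoa1, Apoe, Apoh, Apom and Apoa4 are from 1000 to 2000 bases. In n livers alone they had log2 differences of 1.10, 0.81, 1.01, 1.01 and -0.049, in this order. Apoa5, from 2000 to 4000 bases, had 0.48 there. Of 19 hepatocyte markers 17 were higher with E2 in n livers (median 0.62), and 16 were lower in o livers (median -0.22). All 12 tested macrophage markers, all 6 endothelial markers and all 5 tested fibroblast markers were lower with E2 in n livers, with medians of -0.49, -0.65 and -0.63. In o livers 10 of 13 macrophage markers were lower too (median -0.43). Of the endothelial markers 4 of 6 were lower there (median -0.068), and all 4 tested fibroblast markers were higher (median 0.61). Summed macrophage markers were 468 to 509 CPM in n livers with E2 and 516 to 750.0 CPM in n livers with vehicle, with none at 0. The part of transcript length and of cell makeup in the members' differences was not tested.

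**Figure D4:**
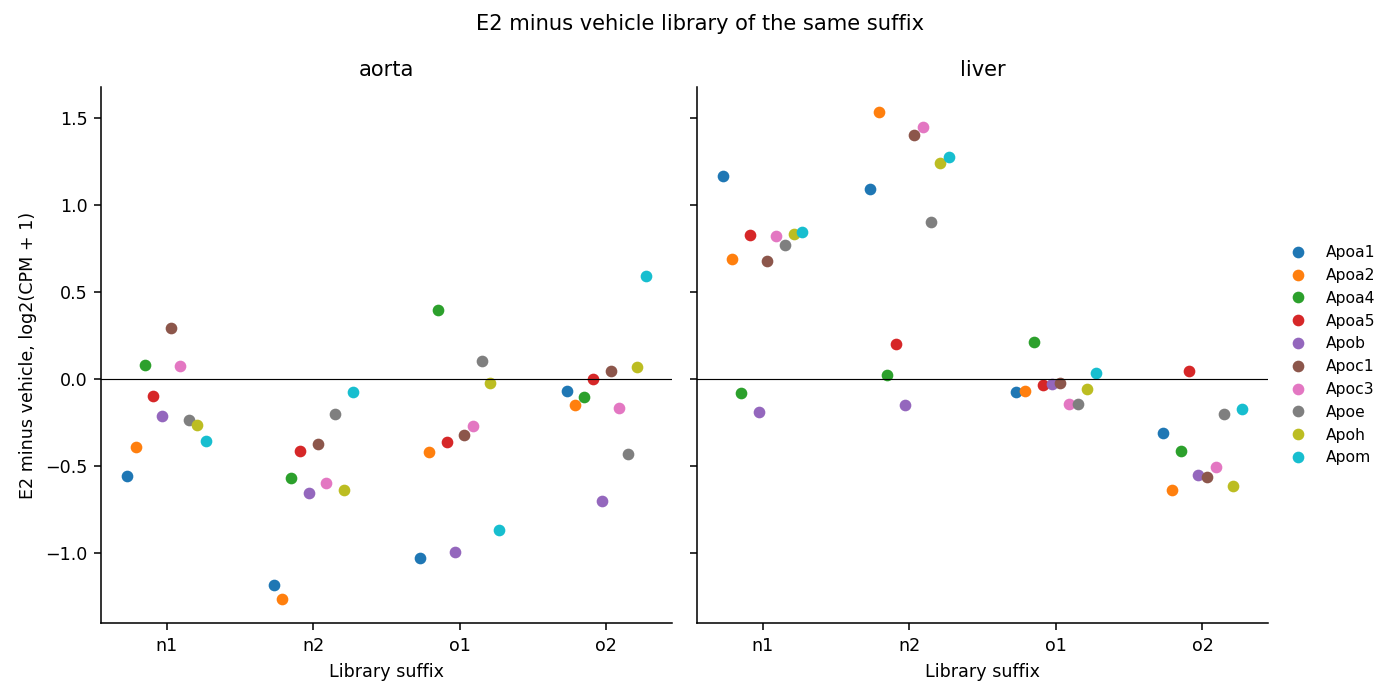
For the 10 members, log2(CPM + 1) of the E2 library minus that of the vehicle library with the same suffix, in aorta and in liver. Members above 0 number 8, 9, 2 and 1 of 10 in n1, n2, o1 and o2 livers, and 3, 0, 2 and 3 of 10 in aortas.

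The E2 effect in aorta minus that in liver was tested over all 16 libraries. No gene was called by the quasi-likelihood test of edgeR after Benjamini-Hochberg adjustment (0 of 14190, 0%), 761 had an unadjusted p under 0.05 (2.32% higher and 3.04% lower), and DESeq2 called 12 genes, none of them a member. All 10 members were negative, with a median of -0.82, against 0.0075 over all genes. Apom is counted here although it was below the filter in the aorta fit. It passed the filter here through its liver counts and had at most 12 reads in an aorta library. Apoa1 was the farthest from 0, with -1.33 ± 0.41 (unadjusted p = 0.00534, adjusted p = 0.839). In n libraries alone its value was -2.17 and in o libraries alone -0.48. Apoa2, Apoa5, Apom and Apob had -1.10 ± 0.44, -1.07 ± 0.48, -1.06 ± 0.80 and -0.72 ± 0.31, and Apoe had -0.53 ± 0.33. Of the 19 hepatocyte markers 18 were negative, with a median of -0.94, though only 15 passed the filter on low counts in the aorta fit.

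Next, n libraries were compared with o libraries. In liver 9 members were higher in n than in o libraries, and Apob was lower. The log2 differences ran from 1.54 ± 0.31 for Apoa1 to 4.40 ± 0.41 for Apoc3 (adjusted p = 3.13e-08 by the quasi-likelihood test of edgeR after Benjamini-Hochberg adjustment), with 2.99 ± 0.32 for Apoe, and Apob had -1.77 ± 0.24 (adjusted p = 3.31e-06). Of all 11726 genes 33.7% were higher and 35.7% lower. In aorta 2 of the 9 tested members passed. Apoe rose in n against o libraries by 1.85 ± 0.22 on the log2 scale (adjusted p = 2.25e-05) and Apob was 20.1-fold lower (log2 difference -4.33 ± 0.54, adjusted p = 2.87e-05), where 33% of 13698 genes were higher and 28.1% lower. Apoc3, with 1.55 ± 0.70, missed the threshold (adjusted p = 0.0677), and passed it without the filter on low counts and in limma voom. Without the o1 aorta with E2 it passed together with Apoh, and without the o1 aorta with vehicle together with Apoa5, so 3 members were then higher in place of 1. Over the libraries left out in turn, Apoc3 ran from 1.09 to 2.24, Apoh from 0.60 to 1.16 and Apoa5 from 0.83 to 2.96 on the log2 scale.

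Length went with this difference across genes. Spearman's rho between length and the n minus o difference was -0.368 in aorta and -0.569 in liver, a description over the 95.7% of tested genes with a length in each tissue, which share the same libraries. In liver the median log2 difference was 2.56 for genes under 1000 bases, 1.77 from 1000 to 2000 and -2.86 above 8000 bases. In aorta these medians were 1.02, 1.10 and -1.64. In liver every member had the sign of the median of its length class, though Apoa5, of 2522 bases, had 3.74 where that median was 0.22. In aorta Apoc3, of 863 bases, Apob, Apoe (1.85), Apoa5 (1.64), Apoh (0.92), Apoc1 (0.45) and Apoa2 (0.24) had the sign of theirs. Apoa1 (-0.59) and Apoa4 (-0.15) had the opposite sign. In limma voom they had 0.0035 ± 0.52 and 0.54 ± 0.75, so neither sign is certain. The kits, sequencers and animals behind n and o cannot be told apart here.

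**Figure D5:**
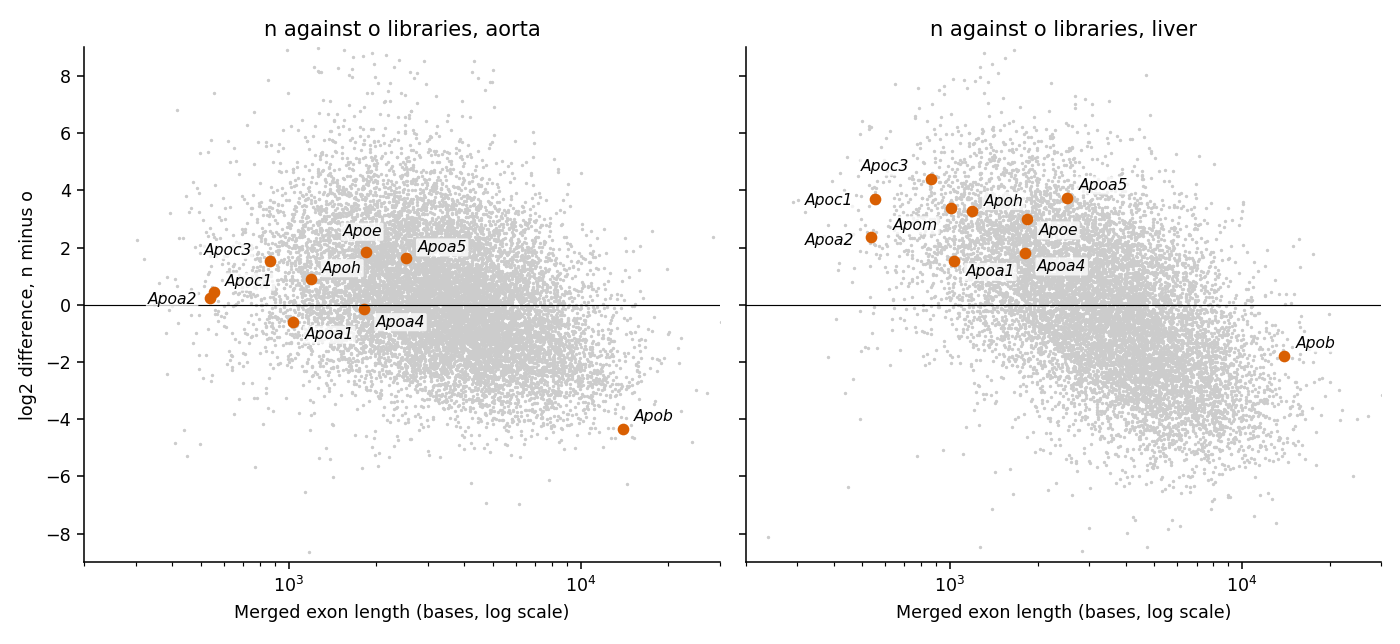
Log2 difference of n minus o libraries against merged exon length in bases (log axis), over all tested genes and with the members marked, in aorta and in liver. Apob, the longest member, is the one below 0 in liver.

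Other genes of lipoprotein biology were counted by list, where 24.1% of all tested genes were higher in aorta and 23.4% lower with vehicle. Of 9 other apolipoproteins tested with vehicle, 1 was higher in aorta and 8 lower. The higher one was Apod, a lipocalin made by many tissues, with 39.7 ± 21.5 CPM in aorta against 0.0838 ± 0.0975 CPM in liver (SD, n = 4 each; log2 difference 8.63 ± 0.70). The lowest were Apoc4 with -10.58 ± 0.67 and Apof with -10.20 ± 0.70, at only 0.673 ± 0.623 and 0.594 ± 0.206 CPM in aorta. Of 12 genes of assembly and secretion, 1 was higher, the sorting receptor Sort1 with 1.11 ± 0.43, and 6 were lower. The lowest were A1cf, a cofactor of Apob RNA editing, with -10.83 ± 0.55, and Tm6sf2 with -6.94 ± 0.49. These rest on levels near 0 in aorta, with 0.0558 ± 0.0779 CPM for A1cf and 0.352 ± 0.328 CPM for Tm6sf2, and A1cf had no reads in n aortas. Of 13 receptor and uptake genes, 3 were higher and 7 lower. Vldlr, a receptor that binds Apoe, had 139.5 ± 98.2 CPM in aorta against 13.5 ± 11.3 CPM in liver (log2 difference 3.34 ± 0.40). Lrp8, another Apoe receptor, had 24.9 ± 7.06 CPM in aorta against 1.32 ± 1.12 CPM in liver (4.36 ± 0.53), and Lsr had -4.54 ± 0.33. Of 13 lipases, transfer proteins and high-density lipoprotein enzymes, 1 was higher and 6 lower. Lpl, lipoprotein lipase, was the higher one, with 102 ± 55.3 CPM in aorta against 15.6 ± 10.6 CPM in liver (2.83 ± 0.46), while Lipc, hepatic lipase, had -9.70 ± 0.66. Of 20 transcription factors known to act on these genes, 1 was higher, Rora with 1.01 ± 0.30, and 15 were lower, led by Nr0b2 with -10.57 ± 0.57 and Hnf4a with 0.0436 ± 0.0872 CPM in aorta against 78.5 ± 35.8 CPM in liver (-10.53 ± 0.57). Adipocyte markers, with summed levels of 2069 to 4479 and 2143 to 4179.8 CPM in aortas with E2 and with vehicle, against 58.5 to 222 and 64.6 to 262 CPM in livers, were higher in aorta in 7 of 7 tested genes, and their part in the Lpl and Vldlr levels was not tested.

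With E2, 0 genes of these 5 lists were called in either tissue by the quasi-likelihood test of edgeR after Benjamini-Hochberg adjustment, as for all genes. In aorta Gpihbp1, which anchors lipoprotein lipase to endothelium, had -0.67 ± 0.28 (unadjusted p = 0.0415). In liver Angptl4, an inhibitor of lipoprotein lipase, averaged 18.5 ± 8.30 CPM in E2 livers and 40.0 ± 16.2 CPM in vehicle livers (SD, n = 4 each; log2 difference -1.15 ± 0.23, unadjusted p = 0.000165, adjusted p = 0.939). Hnf4a in liver averaged 52.1 ± 25.5 CPM with E2 and 78.5 ± 35.8 CPM with vehicle (-0.58 ± 0.23, unadjusted p = 0.0224). Mylip, a ubiquitin ligase, had -0.95 ± 0.34 in liver (unadjusted p = 0.014). Other genes with the smallest p of their lists had log2 differences of -0.63 ± 0.51 (Apof), -0.80 ± 0.66 (Apoc4), 0.26 ± 0.17 (Dgat2), -0.42 ± 0.31 (Dgat1), -0.34 ± 0.15 (Angptl4), 0.62 ± 0.36 (Ppara) and 0.38 ± 0.23 (Cebpa) in aorta. In liver they had 0.46 ± 0.25 (Apoc4), 0.29 ± 0.21 (Clu), -0.85 ± 0.44 (Sort1), 0.41 ± 0.24 (Cideb), 0.27 ± 0.23 (Lsr), 0.45 ± 0.25 (Lipc) and 0.45 ± 0.22 (Nr1h3). None of these passed the adjusted threshold.

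Genes most like each member were found by Pearson's r of log2(CPM + 1) over the 16 libraries, among 14190 genes. This is a description, since the points fall into clusters by tissue and letter, and no p is given. Apoa1 was nearest to F2 (r = 0.999), Apoa2 to Hpd (0.999), Apoa4 to Azgp1 (0.998) and Apoa5 to Abcc6 (0.998). Apob was nearest to Pzp (0.998), Apoc1 to Glyat (0.998), Apoc3 to A1bg (0.998) and Apoe to Gpt (0.997). Apoh was nearest to Apof (0.998) and Apom to Spp2 (0.998). Between members, Apoe and Apob were the least alike, with r = 0.771. Over the 8 aorta libraries alone, Apoe was nearest to Bax (r = 0.998) and Apob to Erich2 (0.994).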

How the data were processed

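The authors deposited one table of read counts per gene for 16 libraries. Per the submitters' processing notes, Bowtie 0.12.5 and HTSeq 0.4.5p7 were used with build mm9, and edgeR 3.4.2 was named. The sources used here name neither the annotation nor the strand setting, so overlapping or antisense genes may share reads. As a unit, the deposited table was taken as estimated counts, because each column also holds a percentage, but every gene value was whole and rounding changed nothing. The 8 lines that name no gene stayed out of library sizes and tests, and reads in no annotated gene were 48.0% to 75.2% of a library.

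Columns were assigned to groups by tissue and treatment. Counts were tested with edgeR 4.0.16 (glmQLFit and glmQLFTest, TMM, filterByExpr by group with a minimum count of 10 and a minimum total of 15) in R 4.3.3, fitted to all genes with p-values adjusted over all of them. A batch term of o1, o2 and n was used for E2 and tissue, and treatment for n against o. The E2 effect of n minus o was fitted on the 4 combinations of letter and treatment, with no term that sets o1 and o2 apart. A log2 difference is the first group minus the second, and its SE is its size over the square root of F. The threshold was an adjusted p under 0.05, with an absolute log2 difference over 1 between tissues and between letters. Other settings were DESeq2 1.42.0, limma 3.58.1 voom, other size factors, no filter, no Rn45s, no batch, 1 letter alone, the 4 suffixes as a replicate block and each library left out. The fits were tested on simulated data first. Merged exon lengths came from GENCODE M21, for 22637 symbols. Motifs were searched in RefSeq promoters with Python 3.11.15.

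Deviations from the group mean correlated between E2 and vehicle libraries of a suffix at 0.895 to 0.927 in aorta and 0.869 to 0.921 in liver. The highest values with another suffix were 0.785 to 0.876 in aorta and 0.831 to 0.915 in liver. For n2 in liver that value, 0.897, was above the 0.884 of its own suffix. With the mean of the letter removed the aorta values were 0.510 (o) and 0.438 (n) and the liver values 0.298 (o) and -0.0592 (n). Libraries of a suffix were thus more alike in aorta than in liver, and differences within a suffix are given for both tissues. The batch term sets o1 and o2 apart in both tissues but does not use the pairing of n1 and n2, and the block does.

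The members, gene lists and tests were chosen with earlier results of these data known. All 10 members are named. Of each other list, the rule names the 2 genes with the largest difference past the threshold in each direction between the tissues with vehicle, and the 2 with the smallest p with E2. Marker lists are given by counts and summed levels, with Ttr and Alb named by this rule and Hnf4a as a factor of these genes. For likeness it names the 2 nearest genes, of which the nearest is given. Some genes that the rule names are not reported here.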

Additional observations from a re-analysis of the deposited data

Results flagged for a closer look

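In 40 groups of 4 libraries, 1 gene in 1 group each, the sample farthest from its neighbours stood apart by Dixon's criterion (the gap to the next sample as a share of the range) in 2, where chance gives about 1 in 20. Apoa1 in the o1 aorta with E2 had 9.68 CPM, against 3.34 to 4.43 CPM in the other aortas with E2. The o1 aorta with vehicle was also the highest of its group for Apoa1, at 20.8 CPM. Apoa5 in the o2 aorta with vehicle had 0 CPM, against 0.633 to 0.661 CPM in the other aortas with vehicle. The o2 aorta with E2 was at 0 CPM for Apoa5 too, and no aorta library held more than 16 reads of this gene.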

How the results depend on the processing

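Between the tissues every member kept its direction and its call in 170 of 170 values with vehicle and in 170 of 170 with E2, and in liver n against o did so in 130 of 130. Without the batch term the counts over all genes were 1072 higher and 1375 lower with vehicle and 1217 and 1438 with E2. With E2 no member was called in either tissue under any setting. In aorta 148 of 152 member values kept their sign. The o libraries alone gave 0.23 for Apoa4 and 0.080 for Apoh, and leaving out 1 library gave -0.65 to 0.17 for Apoa4 and -0.20 to 0.022 for Apoc1. Over all genes DESeq2 called 20 higher and 4 lower there, the replicate block 11 and 1, and the o libraries alone 16 and 17. Leaving out the n2 aorta with vehicle gave 12 and 5. In liver the o libraries alone gave -0.16 for Apoa1, -0.32 for Apoa2, -0.26 for Apoc1, -0.30 for Apoc3, -0.14 for Apoe, -0.31 for Apoh and -0.043 for Apom, and leaving out 1 library gave -0.16 to 0.077 for Apoa4. Over all genes no filter gave 4 higher and 2 lower in liver, the o libraries alone 3 and 2, and the n libraries alone 1 higher.

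For the E2 effect in aorta minus liver, Apoa4 was 0.0046 without the batch term, and the o libraries alone gave 0.40 for Apoa4, 0.15 for Apoc1, 0.39 for Apoh and 0.50 for Apom. Leaving out 1 library gave -0.52 to 0.27 for Apoa4. For n against o in aorta, no filter and limma voom each called 2 members higher, and leaving out 1 library 1 to 3. limma voom gave 0.0035 for Apoa1 and 0.54 for Apoa4, and leaving out 1 library gave -0.96 to 0.055 for Apoa1, -0.075 to 0.54 for Apoa2 and -0.68 to 0.95 for Apoa4. For the E2 effect of n minus o in aorta no member was called, and edgeR gave 0.21 ± 1.96 for Apoa5 and -0.024 ± 1.65 for Apoc3. There limma voom gave -0.63 for Apoa5 and 0.16 for Apoc3, and the replicate block 0.19 for Apoc3. Leaving out 1 library gave -2.02 to 0.80 for Apoa1, -2.84 to 1.48 for Apoa4, -4.87 to 4.30 for Apoa5, -1.31 to 0.92 for Apob, -0.16 to 0.35 for Apoc1, -1.96 to 2.36 for Apoc3 and -0.43 to 0.18 for Apoe. In liver it gave -0.14 to 0.19 for Apoa4 and -0.090 to 0.27 for Apob, and no filter called 1 member, Apoa2. The cause was not tested. The replicate block changed no call of a member; between n and o it cannot be fitted, since each suffix holds 1 letter. Read counts limit Apoa4, Apoa5 and Apom in aorta, with at most 18 reads a library.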
